A study of Sus scrofa with 6 samples.

Results

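The 226 probes described here are those whose annotation names a subunit of the mitochondrial respiratory chain or of ATP synthase, of 43603 probes on each array. They were chosen by text alone. A description had to contain the name of NADH dehydrogenase, the cytochrome b-c1 complex, cytochrome c oxidase or ATP synthase, or the gene name in the scanner files had to begin with NDUF, UQCR, COX and a digit, or ATP5. No probe of succinate dehydrogenase met these terms. RNA came from longissimus dorsi muscle (LDM), a glycolytic muscle, and psoas major muscle (PMM), an oxidative muscle, of female Landrace pigs aged 210 days. The pigs were kept off feed before slaughter, and both muscles were sampled in their middle section. No label ties an array to a pig, so p-values measure the spread between these arrays. Each muscle was measured on 3 one-colour Agilent arrays, which limits the precision of every value. The label on RNA extraction speaks of adipose tissue, whereas every sample is labelled as muscle. The skeletal muscle genes ACTA1, CKM, MB, DES and TTN were well above background on all 6 arrays.

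The respiratory chain moves electrons from nutrients to oxygen and pumps protons across the inner mitochondrial membrane. Complex I (NADH dehydrogenase) takes electrons from NADH, complex III (the cytochrome b-c1 complex) passes them to cytochrome c, and complex IV (cytochrome c oxidase) hands them to oxygen. ATP synthase, or complex V, lets the protons flow back and makes ATP. Most subunits are encoded in the nucleus and a few in mitochondrial DNA, and muscles rich in oxidative fibres hold more mitochondria. In bulk tissue, more mitochondria-rich fibres and more RNA per fibre cannot be told apart.

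Not every member is a pig subunit. Of the 226 probes, 34 carried a gene name and 47 were described after a protein of pig or another mammal, together covering 49 genes. The remaining 145 had only a remote description, after a fish, a fly or a fungus for example, in which 3% to 47% of that protein was covered, with a median of 6%. These 145 are treated apart below, since such a match does not show which pig gene they measure. A probe was tested when it was well above background on all 3 arrays of at least 1 muscle. That held for 150 members, of which 63 belonged to 41 of the 49 genes and 87 were of remote description.

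The nuclear-encoded subunits mostly had higher means in PMM. Of 32 tested nuclear-encoded subunit genes, 30 had a higher mean in PMM than in LDM, with a median log2 fold change of 0.49 (1.41-fold). Over all 3301 tested genes, 49.2% were higher in PMM, the median was -0.01 and the values from the 5th to the 95th percentile ran from -0.52 to 0.70. The median was 0.39 over 11 nuclear-encoded genes of complex I, 0.54 over 2 genes of complex III, 0.56 over 9 of complex IV and 0.48 over 10 of complex V. No list test was run on these counts, because the members were chosen with results of these arrays known.

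No single member gene passed the test between the muscles, and no member probe did. limma gave every tested member gene and probe a Benjamini-Hochberg adjusted p of 1.0. Over all genes 0 of 3301 were called (0.0%), and over all probes 0 of 25835 (0.0%), with 121 genes and 689 probes at an unadjusted p under 0.05. The unadjusted threshold was met by 2 member genes, NDUFA4 and ATP5G1. Standard errors of the subunit genes lay between 0.26 and 0.54, as large as much of the shift itself.

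Same-numbered arrays of the muscles deviated together, so the differences were also taken within pairs. With the replicate number as a block, which is also the scan day, limma called 4 of 41 member genes, all higher in PMM. These were ND2, COX5A, ATP5G1 and NDUFA4. In that fit, 3.82% of all genes were called as higher in PMM. At an unadjusted p under 0.05, 23 of the 41 member genes were higher in PMM, against 11.8% of all genes. Of 32 nuclear-encoded subunit genes, 28 were higher in PMM in every pair and 0 were lower in every pair. Over all genes, 21.1% were higher in every pair, and 716 of 3301 were lower in every pair. With the block and quantile normalization together, none of the 3301 genes was called. With the block and without replicate 1, ND2 alone of the member genes was called, and without replicate 2 or without replicate 3 none was. None of the 150 tested member probes was called with the block, where 0.0619% of all probes were.

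The median difference of the 32 nuclear-encoded genes was 0.58 in pair 1, 0.59 in pair 2 and 0.29 in pair 3. All tested genes had medians of 0.12, 0.04 and -0.18 in the same pairs. Relative to these, the subunits were shifted by 0.46, 0.55 and 0.47. Pairs 2 and 3 each lay on 1 slide, and the arrays of pair 1 lay on separate slides.

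Complex I had 11 nuclear-encoded genes tested, of which 10 had a higher mean in PMM and 9 were higher in every pair. NDUFB6, an accessory subunit of the membrane arm, had levels of 6.5, 6.28 and 5.94 in LDM and 7.06, 7.02 and 6.32 in PMM. A level here is log2 of the spot's intensity minus log2 of the 75th percentile of its array, and arrays are given in the order of their numbers. PMM was higher in every pair although the groups overlapped, and the log2 fold change was 0.55 ± 0.33 (SE, n = 3 per muscle), or 0.55 ± 0.18 with the block (limma adjusted p = 0.107).

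NDUFA4L2 encodes a relative of NDUFA4 that is known as a hypoxia-induced gene. It was counted with complex I by its name alone, and so entered the counts and the median of that complex. It was at 2.28, 2.89 and 3.50 in LDM and at 3.46, 3.24 and 3.73 in PMM. Most of its log2 fold change of 0.58 ± 0.37 came from pair 1, with a difference of 1.18 against 0.35 and 0.22 in the other pairs. Besides NDUFB6, the accessory subunits with a higher mean in PMM were NDUFA6, NDUFA7, NDUFB4, NDUFB8, NDUFB11, NDUFC1 and NDUFS5. Their log2 fold changes lay between 0.23 and 0.49. With normexp, NDUFA7 (-0.09), NDUFC1 (-0.06) and NDUFS5 (-0.08) turned negative and NDUFB11 was at 0.03. NDUFB11 was the only nuclear-encoded gene of complex I whose arrays did not overlap between muscles, with 0.43 ± 0.27. The NDUFB9 probe was not well above background on any array. Nor was the probe of NDUFS1, the largest core subunit, which was described as covering 16% of the protein. Whether these probes can read their genes was not tested.

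The exception in complex I was NDUFB5, at 2.03, 1.87 and 1.85 in LDM and 0.77, 1.49 and 2.31 in PMM. The pairs pointed both ways, and its log2 fold change was -0.40 ± 0.40. Its probe was described as covering 21% of the bovine protein. It shared a run of 15 bases with the probe of COX6B2, the exception in complex IV, which was described as covering 22% of the mouse protein. Those letters occur in 5 of 43603 probes (0.0115%), and not on the other strand. The stretches of 30 bases that hold the shared run, in capitals, are given because both probes depart from the shift of the other subunits.
NDUFB5 probe: acttgagAACTTCCATATGCTGcaggcatg
COX6B2 probe: AACTTCCATATGCTGggggtgcagccataa
COX6B2, known as a testis form of subunit 6B, was at 5.14, 4.09 and 4.54 in LDM and at 4.43, 4.07 and 5.18 in PMM, with a log2 fold change of -0.03 ± 0.40. In both genes PMM was lower in pairs 1 and 2 and higher in pair 3. The same held for ND6 (-0.63, -0.20 and 0.40) and ATP5S (-0.99, -0.04 and 0.20), whose probes do not hold the shared run. Whether the shared letters bear on these values was not tested, nor was which gene each of these probes reads.

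Complex III was represented by UQCRH and UQCR10. UQCRH, the hinge protein at cytochrome c1, was at 7.11, 7.28 and 7.04 in LDM and at 7.89, 7.80 and 7.49 in PMM. All 3 PMM arrays were above all 3 LDM arrays, with a log2 fold change of 0.58 ± 0.27 (exact two-sided permutation p = 0.1, the smallest that 3 against 3 allows). UQCR10, a small subunit of the same complex, was at 7.90, 7.71 and 7.87 in LDM and at 8.43, 8.46 and 8.11 in PMM. Here too the groups did not overlap, and the log2 fold change was 0.50 ± 0.27. Both had an unadjusted p under 0.05 with the block and an adjusted p above it (0.092 and 0.161). UQCRC2, a core protein, was well above background on 2 arrays of each muscle and was not tested.

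Complex IV had 9 nuclear-encoded genes tested, of which 8 had a higher mean in PMM. NDUFA4, first described with complex I and now counted as a subunit of complex IV, was at 8.49, 8.40 and 8.23 in LDM and at 9.40, 9.06 and 8.79 in PMM. Every PMM array exceeded every LDM array. The log2 fold change was 0.71 ± 0.29, and with the block 0.71 ± 0.18 (limma adjusted p = 0.0405). A further NDUFA4 probe with no shared stretch of 20 bases gave 0.70 ± 0.32. COX5A, a subunit on the matrix side, was at 6.02, 5.65 and 5.11 in LDM and at 6.95, 6.47 and 5.68 in PMM. The array numbers kept their order in both muscles, so the groups overlapped while the pairs differed by 0.92, 0.82 and 0.57. The log2 fold change was 0.77 ± 0.41, and with the block 0.77 ± 0.18 (limma adjusted p = 0.0277).

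Several subunits of complex IV exist in a heart and muscle form and a form found in all tissues. COX7A1, the heart and muscle form of subunit 7A, was at 8.41, 8.42 and 8.61 in LDM and at 9.17, 9.01 and 8.93 in PMM. COX7A2, the form found in all tissues, was at 4.79, 5.24 and 4.73 in LDM and at 5.50, 5.84 and 5.13 in PMM. Both were higher in PMM in every pair, by a mean log2 fold change of 0.56 ± 0.26 for COX7A1 and 0.57 ± 0.31 for COX7A2. The groups did not overlap for COX7A1, and they overlapped for COX7A2. COX8H, the heart and muscle form of subunit 8, was at 7.97, 8.0 and 8.12 in LDM and at 8.59, 8.59 and 8.38 in PMM, without overlap and with 0.49 ± 0.26.

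COX6B, which sits where the monomers of the complex meet, was at 7.65, 7.51 and 7.56 in LDM and at 8.67, 8.16 and 7.95 in PMM. The groups did not overlap, and the log2 fold change was 0.68 ± 0.30, or 0.68 ± 0.19 with the block (limma adjusted p = 0.0617). COX6C and COX7C, 2 small membrane subunits, had log2 fold changes of 0.38 ± 0.27 and 0.52 ± 0.35. The COX7B probe was not well above background on any array.

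Besides ATP5C1 and ATP5E, which were not tested, the nuclear-encoded member genes of ATP synthase numbered 10. All 10 had a higher mean in PMM, ATP5G2 by only 0.04, and 9 were higher in every pair. Without PMM replicate 1, the median of these genes was 0.31. The catalytic head is built of the alpha subunit ATP5A1 and the beta subunit ATP5B around the shaft subunit ATP5C1. ATP5A1 was at 8.32, 7.81 and 7.56 in LDM and at 9.37, 8.41 and 8.04 in PMM. Array 1 was the highest in both muscles, and the groups overlapped. The log2 fold change was 0.71 ± 0.41, and with the block 0.71 ± 0.19, where the adjusted p of 0.0516 missed the threshold. ATP5B was at 8.19, 7.55 and 7.25 in LDM and at 8.79, 8.10 and 7.67 in PMM, with differences of 0.60, 0.55 and 0.42 in the pairs. Its log2 fold change was 0.53 ± 0.39, and 0.53 ± 0.17 with the block (adjusted p = 0.119). Without PMM replicate 1, ATP5A1 was at 0.33 and ATP5B at 0.22, and without LDM replicate 3 ATP5B was at 0.32. No ATP5C1 probe was well above background on all arrays of a muscle.

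The stalk that holds the head in place includes ATP5O, the subunit that confers sensitivity to oligomycin, and ATP5H. ATP5O was at 5.32, 5.29 and 4.92 in LDM and at 6.11, 5.92 and 5.37 in PMM. The groups did not overlap, and the log2 fold change was 0.62 ± 0.31. ATP5H was at 8.19, 7.92 and 8.23 in LDM and at 8.97, 8.40 and 8.41 in PMM, without overlap and with 0.48 ± 0.30. ATP5J2, a small membrane subunit, was at 7.53, 7.43 and 7.43 in LDM and at 8.15, 8.01 and 7.65 in PMM. Its groups did not overlap, and the log2 fold change was 0.48 ± 0.28. ATP5I, ATP5J and ATP5L, further small subunits, lay between 0.33 and 0.47. ATP5E was well above background on 2 arrays of each muscle and was not tested.

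The 2 member genes of the proton-carrying ring differed in their values. ATP5G3, a further isoform gene, was not among the members. ATP5G1 and ATP5G2 encode the same mature c subunit with different targeting sequences. ATP5G1 was at 7.47, 7.46 and 7.78 in LDM and at 8.47, 8.07 and 8.36 in PMM. The groups did not overlap, and the pairs differed by 1.0, 0.61 and 0.58. The log2 fold change was 0.73 ± 0.28, and with the block 0.73 ± 0.18 (limma adjusted p = 0.0384). ATP5G2 was at 8.0, 7.79 and 7.88 in LDM and at 8.21, 7.94 and 7.64 in PMM. Its groups overlapped and pair 3 pointed the other way, with a log2 fold change of 0.04 ± 0.28 that turned negative under quantile normalization (-0.10), median centring (-0.03) and normexp background correction (-0.29). The difference between the genes was not tested. Whether their whole probes share sequence was not tested either. A stretch of 30 bases of each is given because the values differ. AATAAA, the letters of the polyadenylation signal, is in capitals in that of ATP5G2.
ATP5G1 probe: catgtgaggcttcgtggaggtcacctaccc
ATP5G2 probe: agagggaagacaAATAAAtactgtattaat
One probe of remote description, after the c subunit of a grouper (27% of the protein), was at 7.28 in LDM and 7.97 in PMM on average, with a log2 fold change of 0.69.

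In all, 13 of the 32 nuclear-encoded genes had all 3 PMM arrays above all 3 LDM arrays, against 4.12% of all genes. None had all PMM arrays below, against 3.03% of all genes. Besides those given above these were COX6C and ATP5I. Each had an exact two-sided permutation p of 0.1, the smallest this design allows.

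Different probes of a gene can be set beside each other as repeated readings. Of the subunit genes, 15 had more than 1 tested probe, and all but COX1 had only positive log2 fold changes. The 4 probes of COX6B gave values from 0.63 to 0.81, and the 3 probes of COX7A1 from 0.56 to 0.75. Many such probes overlap in sequence: 11 of the 28 pairs of tested probes of a gene shared at least 20 bases, and their log2 fold changes differed by a median of 0.07. In the other 17 pairs, the median was 0.16. The 3 COX7A1 probes overlap in sequence and all hold AATAAA (capitals), so they are not independent readings. The stretch given is in 2 of them.
COX7A1 probe: tcaacaagcatcAATAAAtgttctggcttc
AATAAA was in 34.6% of the 81 probes of the 49 genes and in 12.1% of all probes, counted on the printed strand. The widest gap among subunits was in ATP5O, with 0.62 ± 0.31 and, for a probe of faint signal, 0.08 ± 0.51.

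Members described as mitochondrially encoded did not share one direction. Of 5 tested genes, 3 had a higher mean in PMM, with a median log2 fold change of 0.01. ND2, a proton-pumping subunit of complex I, was at 6.19, 5.49 and 4.99 in LDM and at 7.13, 6.39 and 5.80 in PMM. Each pair differed by a similar amount, 0.94, 0.90 and 0.81, although the arrays of a muscle spread more widely and the groups overlapped. The log2 fold change was 0.88 ± 0.45, and with the block 0.88 ± 0.17 (limma adjusted p = 0.0147). ND1, at the junction of the arms of complex I, was at 9.72, 9.24 and 9.77 in LDM and at 9.92, 9.53 and 9.58 in PMM, with 0.10 ± 0.29. COX3, a core subunit of complex IV, was at -1.34, -2.03 and -1.45 in LDM and at -1.20, -1.83 and -1.75 in PMM. Its log2 fold change of 0.01 ± 0.33 turned negative under quantile normalization (-0.02) and median centring (-0.05).

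These identities rest on short matches, and the levels lay far apart. Mean levels in LDM were 9.58 for ND1, 2.34 for COX1 and -3.02 for ND6. Whether each probe reads the gene it is described after was not tested. The probes of ND1, ND2 and COX3 were described as covering 24%, 16% and 11% of the pig protein. Their whole sequences are given because their values differ and their identity rests on these letters.
ND1 probe: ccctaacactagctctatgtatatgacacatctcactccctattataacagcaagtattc
ND2 probe: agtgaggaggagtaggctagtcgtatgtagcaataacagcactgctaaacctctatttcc
COX3 probe: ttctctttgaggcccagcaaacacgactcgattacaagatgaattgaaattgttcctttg
The tested COX1 probes were described after a golden jackal protein (49%), and had log2 fold changes of -0.23 ± 0.39 and -0.15 ± 0.40. The probes share a run of 30 bases, which is given because they are therefore not separate readings.
Shared by the COX1 probes: gggatggaagtcctgtgaaatttgttcgtg
A COX1 probe described after the pig protein was not well above background on any array. The COX2 probe was well above background on 1 PMM array only, and the ATP8 probe on 2 LDM arrays only, so neither was tested. ND6 had a log2 fold change of -0.15 ± 0.47.

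Of the tested member genes, 4 encode no subunit. COX11 and COX15, which serve the assembly of complex IV, had log2 fold changes of -0.23 ± 0.29 and 0.37 ± 0.36. A further COX15 probe gave -0.48, the widest gap between tested probes of a member gene. ATP5S, a factor associated with ATP synthase, was at -0.28 ± 0.37, with 0.21 for its other probe. ATP6V1B2, a subunit of the vacuolar proton pump that the text rule took in, was at 0.31 ± 0.33.

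With the intensities as deposited, the 87 tested probes of remote description showed no shared direction. Of these, 44 were higher in PMM, with a median log2 fold change of 0.007 and a range from -1.59 to 2.08. Of the 87 probes, 21.8% were higher in PMM in every pair, against 74.6% of the 63 tested probes of the member genes and 17.2% of all tested probes. The remote probes were fainter, with a median level of -1.36 against 6.7 for the probes of the member genes. With normexp the order was reversed, with medians of 0.423 for the remote probes and 0.221 for those of the member genes. The median over all tested probes was then 0.186. Whether signal level bears on these differences was not tested. The highest value, 2.08, was at a probe described after 5% of chain 2 of a salamander's NADH dehydrogenase. It was at 3.67, 3.70 and 2.49 in LDM and at 5.92, 5.41 and 4.78 in PMM. The groups did not overlap, and with the block its adjusted p was 0.0915. With the slide as a random block it was called (adjusted p = 0.00499). The lowest, -1.59, was at a probe described after 3% of chain 5 of a fungus, which was well above background on all LDM arrays and on 1 PMM array. With normexp its value was 0.56, in the other direction. No sequence match of such probes to the pig genome was made here.

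The log2 fold changes of the subunits depended on the background correction, as did those of other bright genes. With normexp, the median of the 32 nuclear-encoded genes was 0.18 and 26 were higher in PMM. Bright genes of both kinds had lower values with it. Of the nuclear-encoded subunit genes 25 had a mean level above 6, and their median was 0.49 with the intensities as deposited and 0.18 with normexp. The 240 other tested genes above that level had medians of 0.04 and -0.28. Quantile normalization gave 0.38 for these subunits and -0.02 for those other genes. The subunits had the higher median in each of these settings.

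The tested related genes of the pathway all had a higher mean in PMM, by log2 fold changes from 0.12 to 0.90. All 3 genes of succinate dehydrogenase on the array (complex II), SDHA, SDHB and SDHD, were higher in PMM in every pair, with log2 fold changes of 0.54, 0.50 and 0.49. None was called, and all 3 had an unadjusted p under 0.05 with the block. ATPIF1, the inhibitor of ATP synthase, was at 0.61 ± 0.27, without overlap between muscles. The 5 carriers and porins tested had lower values, from 0.12 for SLC25A6 to 0.41 for VDAC2, and none was called with or without the block. SLC25A5 and SLC25A6 were lower in PMM in pair 3 (-0.05 and -0.28). With normexp SLC25A6 (-0.21), VDAC1 (-0.03) and VDAC3 (-0.14) turned negative, while SLC25A5 (0.16) and VDAC2 (0.02) stayed positive. PPARGC1A, a coactivator of mitochondrial biogenesis, was at 2.53, 2.08 and 1.79 in LDM and at 3.80, 2.68 and 2.65 in PMM. Its groups did not overlap, and the log2 fold change was 0.90 ± 0.40, or 0.90 ± 0.19 with the block (limma adjusted p = 0.0191). TFAM, which packages mitochondrial DNA and helps transcribe it, was at 0.23 ± 0.30, and at 0.0 with normexp. Of 14 assembly factors on the list and cytochrome c itself, no probe carried the name.

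A further 4 subunits carry another or a misspelt name in the scanner files, so the text rule did not take them in. They were named through the RefSeq table and looked up after the results were known. UQCRB of complex III was at 0.66 ± 0.33 and, with the block, called as higher in PMM (0.66 ± 0.17, limma adjusted p = 0.0499). NDUFA8 and NDUFV2 of complex I were at 0.54 ± 0.32 and 0.44 ± 0.29. COX6A1, the form of subunit 6A found in all tissues, was at 0.21 ± 0.44.

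Fibre and cell type markers were measured on the same arrays, and none was called without the block. Their part in the shift of the subunits was not tested. All 7 tested slow fibre genes were higher in PMM in every pair, with a median log2 fold change of 0.62, and the block called 3 of them, MYOZ2, TNNI1 and TPM3. Their summed level ranged from 1740 to 2390 times the 75th percentile in LDM and from 2490 to 3940 in PMM. Of 8 tested fast fibre genes 5 were higher, with a median of 0.03 and summed levels of 4200 to 6960 in LDM and 4810 to 7950 in PMM. Myoglobin, MB, was at 1.48 ± 0.40, and with the block it was called (adjusted p = 0.0109). All 6 endothelial genes had a higher mean in PMM (median 0.35, none called with the block, summed levels 54.9 to 169 in LDM and 96.2 to 167 in PMM). All 4 tested fibroblast genes were lower in every pair (median -0.63, 2 called with the block, COL1A1 and COL1A2, summed levels 97.7 to 220 in LDM and 71.3 to 154 in PMM), though COL1A1 turned from -0.82 to 0.22 with normexp. Of 8 adipocyte genes 3 had a higher and 5 a lower mean (median -0.20, summed levels 90.4 to 266 and 97.3 to 275). The block called LPL as higher in PMM and PLIN1 and CIDEC as lower, of which PLIN1 turned to 0.54 with normexp, and both macrophage genes tested had a higher mean in PMM (median 0.14, summed levels 3.78 to 16.6 and 5.12 to 14.3). Some genes with a higher mean in PMM also turned negative with normexp. These were TNNT1 (-0.04), the endothelial genes PECAM1 (-0.02) and VWF (-0.11), and the macrophage gene CD163 (-0.15). The other tested slow fibre, endothelial and macrophage genes stayed positive. So did not the fast fibre genes MYH1 (-0.24), TNNC2 (-0.30) and MYL1 (-0.26), nor the adipocyte genes FABP4 (-0.19) and PPARG (-0.01). LEP turned from -0.10 to 0.45. No erythrocyte marker carried a name on the array.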

How the data were processed

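The authors deposited linear Cy3 spot intensities from Agilent Feature Extraction, already corrected for background, with flags for outlier spots and for spots well above background (58.5% to 72.4% of spots per array). No scaling between arrays had been applied. No spot was saturated, and outlier spots (6 to 161 an array) were dropped. Here, log2 of the intensity minus log2 of the array's 75th percentile (593 to 881 units) was fitted by lmFit and eBayes (limma 3.58.1, R 4.3.3). The two-sided p-values were adjusted by Benjamini and Hochberg and called under 0.05, separately over 25835 probes well above background on all 3 arrays of a muscle and over 3301 genes. The brightest probe stood for a gene. Names came from the files and from a RefSeq table of Sscrofa11.1 (5846 probes named), and for described members from the description.

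The members, the lists and the rule for named genes were chosen with earlier results of these data known. The rule named core and isoform subunits, the 3 largest changes of each complex, genes called, up to 10 genes without overlap between muscles, and genes detected in 1 muscle only. Genes named besides these were picked after their values were seen. NDUFA4 was counted with complex IV, and NDUFA4L2, by its name, with complex I. The level bound of 6 for bright genes was set after seeing the levels.

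Same-numbered arrays were taken as pairs because their deviations from the muscle means correlated at 0.616, 0.697 and 0.56. The study took both muscles from 3 pigs, but no label ties a number to a pig. Number and scan day coincide. Alternatives were quantile normalization, median centring, a 75th percentile over detected probes, normexp with an offset of 50, other detection filters, the deposited value table, the replicate block, the slide as a random block, single arrays left out and the mean of a gene's probes. No genome was used, so no coordinates are given. The values of 1 member gene that the rule names are not reported here.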

Additional observations from a re-analysis of the deposited data

How the results depend on the processing

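Without the block, the fit over probes called 0 probes, and 7 with quantile normalization, 9 with median centring, 3 with normexp, 16 with the replicate block, 757 with the block without replicate 1, 0 with the block without replicate 2 or 3, and 322 with the slide as a random block. Leaving out single arrays gave 0 to 1. Member probes called were 0 in the main setting, 6 with the block without replicate 1 and 2 with the slide block, all of remote description. Genes called were 0, and 194 with the replicate block, 143 to 180 with the block without replicate 2 or 1, 0 without replicate 3 and 199 with the slide block. Member genes called were 0, 4 with the replicate block, 1 (ND2) with the block without replicate 1, 0 without replicate 2 or 3, and 5 with the slide block, which added ATP5O. The replicate block with quantile normalization called none. The cause of these differences was not tested.

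The complex medians of 0.32 (I, all 14 tested subunits), 0.54 (III), 0.52 (IV, all 11) and 0.48 (V) became 0.07, 0.20, 0.23 and 0.18 with normexp. The median of complex I ranged from 0.21 (without LDM replicate 3) to 0.47 (without PMM replicate 3), and was 0.44 with the block without replicate 3. Over the same single arrays left out, complex III ranged from 0.48 to 0.66, complex IV from 0.40 to 0.61 and complex V from 0.31 (without PMM replicate 1) to 0.67 (without PMM replicate 3). Without PMM replicate 1, ATP5H was at 0.29, COX5A at 0.48 and ND2 at 0.54, and without LDM replicate 1 NDUFA4L2 was at 0.28. Over 420 combinations of 21 named genes and alternatives, 392 kept direction and call, 10 gained a call and 18 changed sign. Part of these genes were named for large changes, for calls or for lack of overlap. The tally therefore does not describe the other member genes, of which NDUFA7, NDUFC1 and NDUFS5 turned negative with normexp. Sign changes concerned 3 of these 21 genes. ATP5G2 became -0.10 (quantile normalization, with and without the block), -0.03 (median centring and the slide block), -0.29 (normexp) and -0.05 and -0.01 (block without replicate 1 or 2), and ranged from -0.10 to 0.18 when single arrays were left out. COX3 became -0.02 (quantile normalization, with and without the block), -0.05 (median centring, and block without replicate 1), -0.08 (block without replicate 2), -0.04 (slide block), and ranged from -0.20 to 0.15 when single arrays were left out. COX1 ranged from -0.49 to 0.05 when single arrays were left out, the latter without LDM replicate 1.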
